A study of Mus musculus with 16 samples.

Results

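Integrin and laminin subunit genes were examined in skeletal muscle of mice fed a high-fat diet (HFD). The members are the genes of a list of 35 mouse symbols, which does not cover every gene of both families, matched by symbol to the 55471 gene identifiers of the deposited table: 17 integrin alpha, 8 integrin beta and 10 laminin genes. Of these, 33 passed the filter on low counts, which left 14331 genes, and *Itgax* and *Lama1* did not. Bulk RNA-seq was performed on muscle of 16 male mice, 1 library per mouse, with 10 libraries labelled *Npr1*+/- and 6 labelled *Npr1*+/+. The *Npr1*+/- mice carry 1 disrupted copy of *Npr1*, the gene of the natriuretic peptide receptor GCA, in the whole body (strain B6.129-Npr1tm1Gar/J on a C57BL/6J background), and the *Npr1*+/+ mice were their littermates. All mice were 12 weeks old when the diet began and ate it for 12 weeks, with 60% of its energy from lipid, so no library of mice on another diet enters here. The sources used here do not name the muscle, and whole muscle holds vessels, nerve, fat and connective tissue beside muscle fibers.

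Integrins are membrane receptors made of 1 alpha and 1 beta chain that bind the matrix outside the cell and, through talin, kindlin and integrin-linked kinase, the actin skeleton inside it. Laminins are trimers of an alpha, a beta and a gamma chain, and they form a sheet that lines each muscle fiber, vessel and nerve. In muscle, the receptor of the *Itga7* and *Itgb1* chains and the dystroglycan complex both hold the fiber to laminin that contains the *Lama2* chain, and loss of *Lama2* or *Itga7* causes muscular dystrophy.

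Some libraries stood apart from the rest. Library totals ran from 15273472 to 59682677 counts, and 59682677 belongs to *Npr1*+/- replicate 5. *Npr1* mRNA did not separate the labels, with a log2 fold change of 0.090 (SE 0.20). Its lowest, median and highest levels in CPM (counts scaled by library size) were 9.82, 12 and 22.2 there and 10.4, 12.4 and 13.4 in those labelled *Npr1*+/+, so every direction here is between libraries as labelled. The median of the longest 20% of genes minus that of the shortest 20%, each centred on its mean over the 16 libraries, was 0.62, 0.77 and 1.07 on the log2 scale in *Npr1*+/- replicates 5, 6 and 7 and -0.71 and -0.65 in replicates 9 and 10, against -0.39 to 0.13 in the *Npr1*+/+ libraries. The subunit genes are long, with a median gene model of 7015 bases against 4197 over all genes tested, and 27 of the 33 lie in the longest 40%. Main results are therefore also given without replicates 5, 6 and 7 or with a correction for gene length.

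The defining muscle fiber genes were abundant in every library, from 16949 to 43709 CPM for the actin gene *Acta1* and from 17779 to 36076 for the creatine kinase gene *Ckm*. Exons of 11 members share bases with another annotated gene in GENCODE M21, and the share is largest for *Itgam* (68.7% of its exon bases lie in *Gm49368*) and *Itga10* (33.5% in *Gm42957*). Both partners are on the same strand, so the counts of *Itgam* and *Itga10* are uncertain. Of the other 9 members, *Itga4* shares the most, 8.04% with *Cerkl* on the opposite strand, and the strand setting of the counting is not given in the sources used here.

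Among the integrin alpha genes, *Itga7*, whose product joins the *Itgb1* chain in the main laminin receptor of the fiber, had the highest level. Levels between genes are given as CPM per kilobase of gene model, with the lowest, median and highest of the 16 libraries. For *Itga7* (ENSMUSG00000025348, chr10:128933818-128958282, plus strand, GRCm38) these were 7.71, 9.34 and 16.4, above every other alpha gene in all 16 libraries and without overlap. *Itga7* made up 44.6% of the summed level of the 17 alpha genes on average, and between 36% and 50.8% in single libraries. Next came *Itgav*, a chain of vitronectin and fibronectin receptors, with 1.51, 2.43 and 3.64. *Itga6*, a laminin receptor chain of endothelial and other cells, followed with 1.31, 1.81 and 4.97. The ranges of *Itgav* and *Itga6* overlapped, and *Itgav* was the higher in 11 of 16 mice. *Itga5* (the fibronectin receptor chain), *Itga1* (a collagen receptor chain) and *Itga4* (a chain that binds fibronectin and *Vcam1*) had means of 1.80, 1.28 and 1.09. The other 11 alpha genes had means under 1 CPM per kilobase, from 0.929 for *Itga3* down to 0.0830 for *Itgax*, and the leukocyte chains *Itgae*, *Itgam*, *Itgal* and *Itgax* and the platelet chain *Itga2b* lie at this low end.

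The beta genes were fewer and further apart. *Itgb1*, the partner of most alpha chains, had 68, 95.7 and 162 CPM per kilobase (ENSMUSG00000025809, chr8:128685654-128733200, plus strand), and *Itgb5*, a partner of the *Itgav* chain, had 33, 45.8 and 49.2 (ENSMUSG00000022817, chr16:33829665-33949145, plus strand). *Itgb1* was higher than *Itgb5* in all 16 mice and their ranges did not overlap. *Itgb6*, another *Itgav* partner, had 4.09, 5.98 and 8.01, and it too stood apart from both neighbours in the order. *Itgb1* and *Itgb5* together made up 94.7% of the summed beta level. The remaining genes were *Itgb4* (the partner of the *Itga6* chain), *Itgb2* (the leukocyte beta chain), *Itgb7*, *Itgb3* and *Itgb8*, with means of 0.630, 0.558, 0.465, 0.183 and 0.145, and the ranges of neighbours in this order overlapped. The summed beta level (153 CPM per kilobase on average) exceeded the summed alpha level (22.1), and mRNA levels do not give the amount of either protein. *Itgb5* varied least of the 35 genes over the 16 libraries, with a coefficient of variation (the SD as a percentage of the mean) of 11.5%.

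Among the laminin genes, *Lamb2* and *Lamc1* led. *Lamb2* (ENSMUSG00000052911, chr9:108479736-108490530, plus strand), the beta chain known from nerve-muscle junctions and vessels, had 8.07, 13.4 and 44.3 CPM per kilobase, and *Lamc1*, the common gamma chain, had 3.48, 4.73 and 14.6 (ENSMUSG00000026478, chr1:153218922-153332786, minus strand). Their ranges overlapped, although *Lamb2* was higher in all 16 mice. *Lama5* (ENSMUSG00000015647, chr2:180176373-180225859, minus strand), an alpha chain of vessels and junctions, had 0.835, 1.40 and 6.20, and *Lamb1*, the other common beta chain, had 1.48, 1.78 and 2.84. *Lama5* was above *Lamb1* in 6 of 16 mice, so the means, 2.04 and 1.90, do not give their order in most mice. *Lama2*, the alpha chain of the fiber sheet, and *Lama4*, that of vessels and nerve, followed with means of 1.33 and 1.28, and *Lama2* was the higher in 8 of 16. The 3 epithelial or minor chains *Lamb3*, *Lamc3* and *Lama3* had 0.559, 0.189 and 0.132. *Lama1* was near absent, with 5 counts in all, in 2 libraries, and a count of 0 in each of the other 14 allows up to 3 counts, which is 0.0493 to 0.219 CPM depending on the library.

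**Figure D1:**
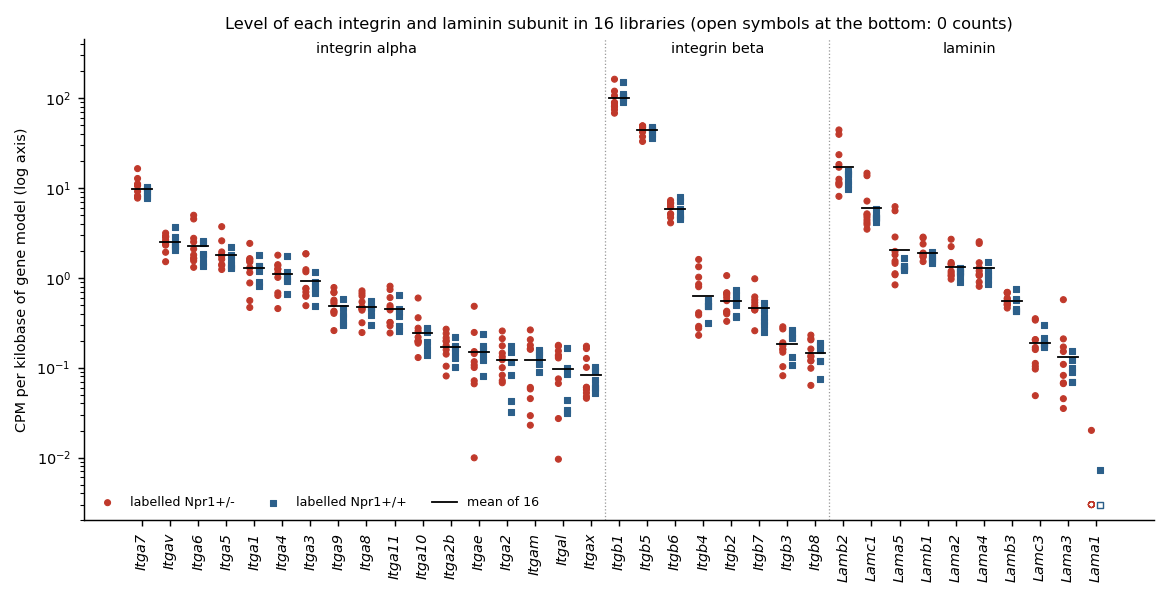
CPM per kilobase of gene model on a log axis for 35 subunit genes, grouped by class and ordered by the mean of 16 libraries (black line), with 1 point per library. *Itgb1* and *Itgb5* have the highest means, *Itga7* leads its class without overlap, and the highest points of *Lamb2*, *Lamc1* and *Lama5* are *Npr1*+/- libraries that stand clear of the rest.

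*Lama5* and *Lamb2* differed most between libraries among the abundant laminin genes, by 7.43-fold and 5.48-fold from lowest to highest, and they varied together, as described below. The sequences before their transcription starts are shown for this reason, from RefSeq tables on GRCm38.p6, 5′ to 3′ on the gene's strand, with each GGGCGG or its reverse complement CCGCCC, the box that Sp1 family factors can bind, in capitals. The *Lama5* window is chr2:180225860-180226109 on the minus strand, and the *Lamb2* stretch is chr9:108479612-108479735 on the plus strand, which stops where the counted gene begins.
Lama5: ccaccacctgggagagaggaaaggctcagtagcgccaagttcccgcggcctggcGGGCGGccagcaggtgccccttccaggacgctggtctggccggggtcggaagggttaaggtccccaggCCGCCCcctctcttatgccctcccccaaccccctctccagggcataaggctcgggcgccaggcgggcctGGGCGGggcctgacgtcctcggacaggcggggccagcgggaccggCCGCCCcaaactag
Lamb2: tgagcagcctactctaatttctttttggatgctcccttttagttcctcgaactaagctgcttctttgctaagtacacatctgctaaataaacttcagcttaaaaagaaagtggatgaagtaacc
The 250 bases before the RefSeq start hold 4 such boxes and 72.4% G or C at *Lama5*, and 0 boxes and 43.6% at *Lamb2*, so the letters of this box are in 1 of the 2 windows. Of 32536 such windows in the table, 33% hold at least 1 box on either strand. Among the 23 members with a window, 8 do (34.8%), among them *Itgb1* with 1, *Itgb5* with 3 and *Lamb1* with 2. None of the 23 has CACGTG (in 6.04% of all windows) or TATAAA on either strand (12.3%). These matches of letters are a description and were not tested against the levels.

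Between genotype labels, no subunit gene passed the test, and most point estimates were above 0. Of 33 genes, 0 had an adjusted p-value under 0.05 (quasi-likelihood test of edgeR, Benjamini-Hochberg adjusted over all genes tested, with cage and body weight as covariates), as of all genes tested (0%), and no adjusted p-value was under 0.9. Over all genes DESeq2 called 6 and limma-voom and the newer edgeR 4 method 0, and none of them called a member. At an unadjusted p-value under 0.05 there were also 0 of 33, against 1.05% of all genes, and the smallest was 0.205. The log2 fold change was above 0 in 26 of 33 (78.8%), against 48.4% of all genes, with a median of 0.15 against -0.0060. Long genes as a whole leaned the same way, to a lesser degree. Of the longest 20% of all genes, 65.2% were above 0, with a median of 0.054. Of the next longest 20%, 54.2% were above 0, with a median of 0.016. These sets hold 14 and 13 of the 33 members. By class, 14 of 16 alpha, 5 of 8 beta and 7 of 9 laminin genes were above 0. For every one of the 33 the 2 groups of libraries overlapped, as for all but 1 of the 14331 genes (0.00698%). Half-widths of the 95% intervals ran from 0.30 to 1.28 on the log2 scale, so differences of this size could lie undetected.

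*Itga2b*, *Lamb1* and *Itga8* had the smallest p-values among the higher genes. *Itga2b*, the platelet chain (chr11:102453297-102470122, minus strand), had a lowest, median and highest level of 0.441, 1.01 and 1.46 CPM in the *Npr1*+/- libraries and 0.557, 0.861 and 1.19 in the *Npr1*+/+ libraries. Its log2 fold change was 0.42 (SE 0.31, p = 0.205), and it was 0.15 with the label alone, 0.094 with cage only and 0.70 with a block for replicate number in place of cage. In a fit with this block, *Npr1*+/- replicates 7 to 10 share a number with no *Npr1*+/+ mouse and add nothing to the estimate. Of 5 platelet markers only *Pf4* passed the filter on low counts. *Lamb1* (chr12:31265234-31329493, plus strand) had 15, 18.4 and 28.2 CPM against 14.7, 16.5 and 19.3, a log2 fold change of 0.23 (SE 0.19), and its highest libraries were *Npr1*+/- replicates 7 and 6. *Itga8*, the nephronectin receptor chain of smooth muscle and fibroblasts (chr2:12106632-12301922, minus strand), had 1.81, 3.42 and 5.28 against 2.22, 3.42 and 4.08, a log2 fold change of 0.32 (SE 0.27). In the same 3 fits it was 0.16, 0.15 and 0.13, and 0.015 with the block and the length correction. For *Itga2b* and *Itga8* the *Npr1*+/+ range lay inside the *Npr1*+/- range, and for *Lamb1* the ranges overlapped.

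Among the lower genes, *Itga11*, *Lamc3* and *Lama3* had the smallest p-values, and the sign of 2 of them depends on the covariates. *Itga11*, a collagen receptor chain of fibroblasts (chr9:62677826-62783982, plus strand), had 1.25, 2.32 and 4.14 CPM in the *Npr1*+/- libraries and 1.33, 2.03 and 3.27 in the *Npr1*+/+ libraries, with a log2 fold change of -0.27 (SE 0.27). Its median was thus higher in the *Npr1*+/- libraries, and with the genotype label alone the log2 fold change was 0.24. *Lama3*, an alpha chain of epithelial laminin (chr18:12333819-12583013, plus strand), had 0.378, 1.03 and 6.14 against 0.751, 1.01 and 1.63, and its log2 fold change of -0.34 (SE 0.50) became 0.62 with the label alone. *Lamc3* (chr2:31887291-31945246, plus strand) had 0.298, 0.997 and 2.14 against 1.05, 1.13 and 1.83 and a log2 fold change of -0.39 (SE 0.40), which was -0.19 with the label alone. Its *Npr1*+/- libraries spanned more than its *Npr1*+/+ libraries on both sides.

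For the most abundant members the estimates between labels were small beside their intervals. *Itga7* had 62.4, 80.0 and 133 CPM in the *Npr1*+/- libraries and 62.4, 74.6 and 83.3 in the *Npr1*+/+ libraries, with a log2 fold change of 0.095 (95% interval -0.25 to 0.44). *Itgb1* had 278, 347 and 662 against 373, 430.3 and 624.8, with a log2 fold change of -0.0071 (-0.41 to 0.40), which was -0.22 with the label alone and -0.25 with cage only. *Itgb5* had 117, 167 and 175 against 128, 156 and 169.9, with -0.037 (-0.34 to 0.26). The group medians of these 3 genes differed by less than the range within either group. *Itgav* had 16.2, 27.5 and 33.8 against 22.1, 24.9 and 39.2, a log2 fold change of 0.076 (-0.35 to 0.50). *Itga6* had 12, 17.8 and 45.5 against 12.4, 16.5 and 23.7 (0.27, -0.35 to 0.89). For *Itgb6* the values were 29.1, 44 and 51.7 against 32.1, 38.6 and 56.9 (0.090, -0.27 to 0.45). Each of these intervals includes 0.

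The laminin genes of the leading chains showed the same form, a few very high *Npr1*+/- libraries over groups that otherwise overlap. *Lamb2* had 49.1, 89.8 and 269 CPM in the *Npr1*+/- libraries and 59.4, 79.6 and 94.2 in the *Npr1*+/+ libraries, and the 3 highest were 269, 241 and 143 in *Npr1*+/- replicates 6, 7 and 5. *Lamc1* had 28.8, 40.2 and 121 against 34.2, 38.7 and 48.5, with 121, 113 and 59.1 in the same 3 libraries. *Lama5* had 9.51, 19 and 70.6 against 13.8, 15.3 and 18.9, with 63.5, 70.6 and 32.4 there. All *Npr1*+/+ libraries lay below these 3 for each of the genes. The log2 fold changes were 0.17 for *Lamb2* (SE 0.31), 0.14 for *Lamc1* (SE 0.31) and 0.40 for *Lama5* (SE 0.38). Without replicates 5, 6 and 7 they were -0.21, -0.15 and 0.12, so the first 2 changed sign. The libraries left out held the highest values of these genes and are all *Npr1*+/-, so a lower estimate without them says little by itself. *Npr1*+/- replicates 9 and 10, with a gene length trend the other way, were kept. The 3 log2 fold changes were larger with other covariates: 0.62, 0.46 and 0.85 with the label alone, 0.59, 0.49 and 0.83 with cage only, and 0.58, 0.38 and 0.69 with a block for replicate number in place of cage. The estimates with the block take nothing from *Npr1*+/- replicates 7 to 10, which have no *Npr1*+/+ mouse of their number. None passed the test in any of these fits.

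**Figure D2:**
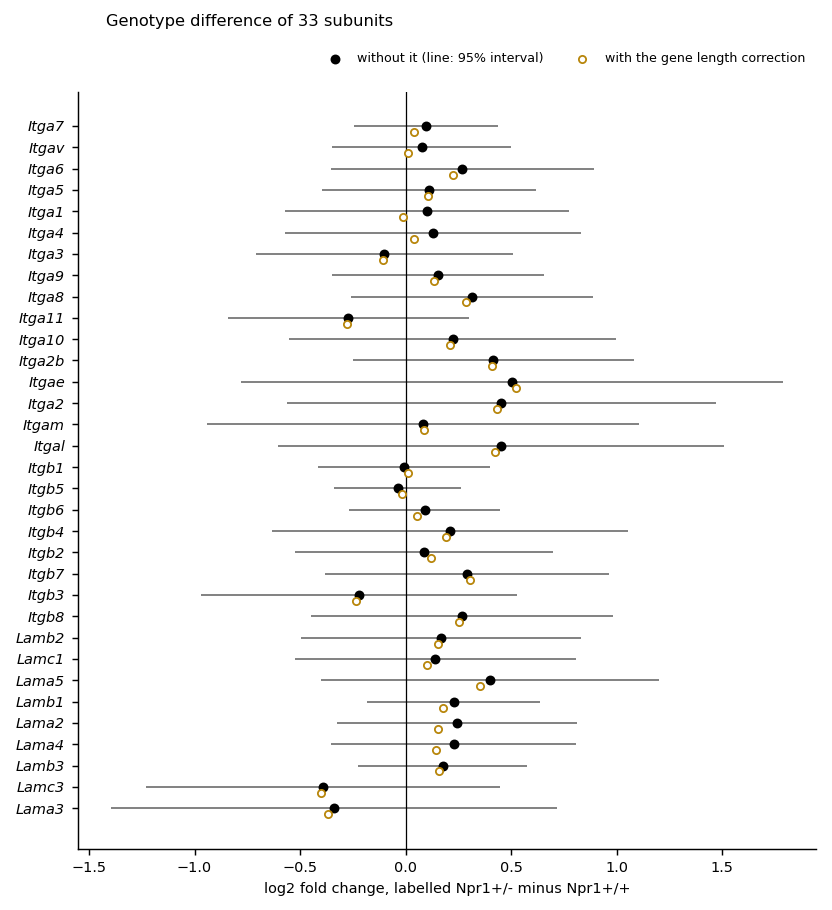
Log2 fold change (x axis, libraries labelled *Npr1*+/- minus *Npr1*+/+) of 33 subunit genes in the order of their level, with the 95% interval (line) and the value after the gene length correction (open circles). Of the estimates, 26 lie above 0 with and without the correction, and every interval includes 0.

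*Npr1*+/- replicates 6 and 7 held the highest values of most members. The highest of the 16 libraries was replicate 6 or 7 for 22 of 33 members (66.7%), against 31.3% of all genes and 58.4% of the longest 20%. Both were the 2 highest for 16 of 33 members (48.5%), against 17.8% of all genes and 38.6% of the longest 20%. These were 8 of 9 laminin genes, all but *Lamb3*, 6 of 16 alpha and 2 of 8 beta genes. The summed level of the 5 laminin beta and gamma genes was 423 CPM in replicate 6 and 387 in replicate 7, against a median of 151 over the *Npr1*+/- and 138 over the *Npr1*+/+ libraries. Beta integrin genes differed among themselves there. *Itgb1* had its 2 lowest values in replicates 7 and 6 (278 and 304 CPM), whereas *Itgb3* and *Itgb4* had their 2 highest there (11.2 and 9.32 CPM for *Itgb4*). The sum of the 8 beta genes, of which *Itgb1* is the largest part, was 545 CPM in replicate 6 and 492 in replicate 7, against medians of 568.1 and 639.9 over the *Npr1*+/- and *Npr1*+/+ libraries. Replicates 6 and 7 are the libraries with the largest gene length trend, and the part of the trend in the members' values was not tested beyond the correction.

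The median of the 33 members, each centred on its mean over the 16 libraries, was 0.69 in replicate 6 and 0.70 in replicate 7 on the log2 scale, and 0.21 or lower in the other 14. After a correction for the smooth trend of each library over gene length, replicates 6 and 7 were at 0.45 and 0.36 and replicate 5 at -0.021. The excess of replicate 5 was thus removed by the correction, whereas replicates 6 and 7 stayed above the other 14. With the correction, 26 of 33 members were above 0 between labels and their median log2 fold change was 0.14. Without replicates 5, 6 and 7, 21 of 33 were above 0 (63.6%, against 51.2% of all genes), with a median of 0.10. Leaving out *Npr1*+/+ replicate 4 alone gave 18 of 34 above 0 and a median of 0.024, and leaving out *Npr1*+/- replicate 6 alone gave 20 of 33 and 0.056. Within cages, the mean of the *Npr1*+/- mice was the higher for 21 of 33 members in cage 675 (2 *Npr1*+/- and 2 *Npr1*+/+ mice), 10 in cage 676 (3 and 1), 25 in cage 677 (1 and 2) and 26 in cage 678 (4 and 1). Over all genes it was the higher for 49.5%, 45%, 51.3% and 44.5% in these cages. Cage 676, which holds none of replicates 5, 6 and 7, was the only cage where fewer than a majority of members were higher.

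**Figure D3:**
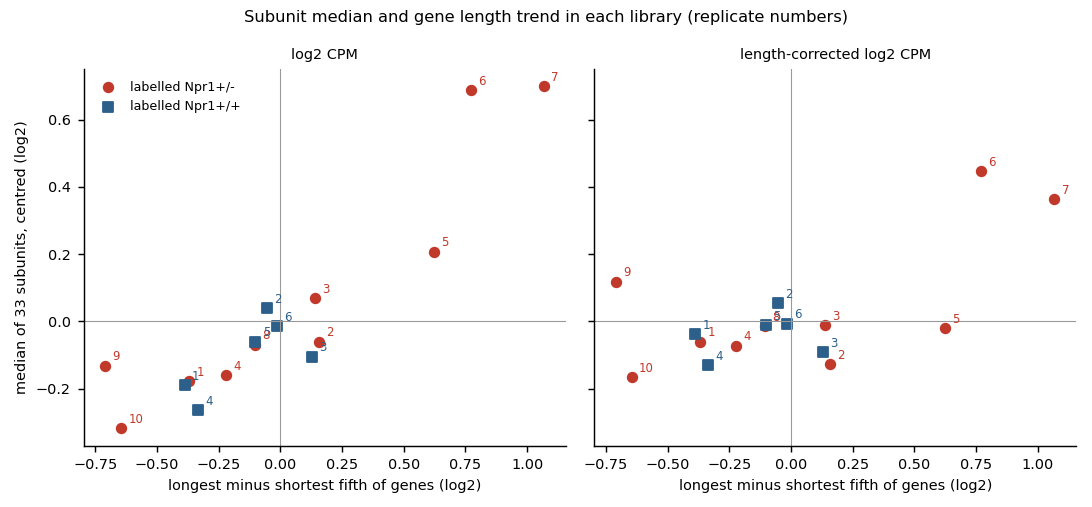
Median of 33 subunit genes (y axis, log2, centred) against the longest minus the shortest 20% of all genes (x axis, log2) in each of 16 libraries, before (left) and after (right) the gene length correction, with replicate numbers. Replicates 6 and 7 labelled *Npr1*+/- stand at 0.69 and 0.70 on the left and at 0.45 and 0.36 on the right.

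Body weight, a covariate of the fit, averaged 43.5 ± 3.79 g (SD, n = 10) in the *Npr1*+/- and 47.4 ± 4.69 g (n = 6) in the *Npr1*+/+ mice. No member passed the test for it with all mice, and 1 mouse decides this. With all 16 mice, 0 of 33 members had an adjusted p-value under 0.05 for the slope per gram, as of all genes (0%). At an unadjusted p-value under 0.05 there were 9 of 33, against 17.1% of all genes, and 7 of these were lower in heavier mice, against 12.3%. The 7 were *Itga3*, *Itga9*, *Itga11*, *Lama3*, *Lama5*, *Lamb2* and *Lamc1*, with log2 slopes from -0.19 per gram for *Lama3* to -0.074 for *Itga9*. *Itgb1* (0.061 per gram, SE 0.024) and *Itgam* (0.16, SE 0.065), the chain of macrophages and neutrophils, had slopes above 0 at the same unadjusted level. With the gene length correction 7 of 33 had an unadjusted p-value under 0.05, against 17.6% of all genes: 6 of the 9 (*Itga3*, *Itga11*, *Itgam*, *Itgb1*, *Lama3* and *Lamb2*) and *Itga2b*. Without *Npr1*+/- replicates 5, 6 and 7, of which replicate 7 is the lightest mouse at 36.5 g, 2 did, against 5.05% of all genes. These were *Itga11*, which is among the 9, and *Itga8*, which is not and had a slope above 0 (0.083). Other fits gave 4 of 33 with body weight as the only covariate (8.21% of all genes), 2 with the replicate block in place of cage (1.48%) and 3 without *Npr1*+/- replicate 7 alone (6.89%). The median slope of all genes itself ran from 0.025 per gram in the shortest 20% to -0.033 in the longest.

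Without *Npr1*+/- replicate 3, a mouse of 40.1 g in cage 675, 12 of 33 members had an adjusted p-value under 0.05 for body weight with the same edgeR test, against 22.1% of all genes, and 11 of the 12 were lower in heavier mice, against 13.7%. The laminin genes among them were *Lamb2*, with a log2 slope of -0.18 per gram (SE 0.034, adjusted p = 0.00462), *Lama5* (-0.18), *Lamc1* (-0.16), *Lama4* (-0.099) and *Lama3* (-0.27). The integrin genes were *Itga3* (-0.17), *Itga5* (-0.10), *Itga6* (-0.11), *Itga7* (-0.064), *Itga11* (-0.17), *Itgb4* (-0.15) and, higher in heavier mice, *Itgb1* (0.086, adjusted p = 0.0353 with edgeR). These 12 were named after their values were seen. In the fit without *Npr1*+/- replicates 5, 6 and 7 the slopes were -0.048 for *Lamb2*, -0.018 for *Lama5* and -0.020 for *Lamc1*, and those of *Lama4* (0.021) and *Itga6* (0.018) were above 0. Of the 12, *Itga11* alone had an unadjusted p-value under 0.05 in that fit (-0.10 per gram, edgeR p = 0.0175). The slopes of *Lamb2* and *Lama5* with all 16 mice were -0.12 (SE 0.043) and -0.11 (SE 0.050). Leaving out any other single mouse left 0 members past the threshold.

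**Figure D4:**
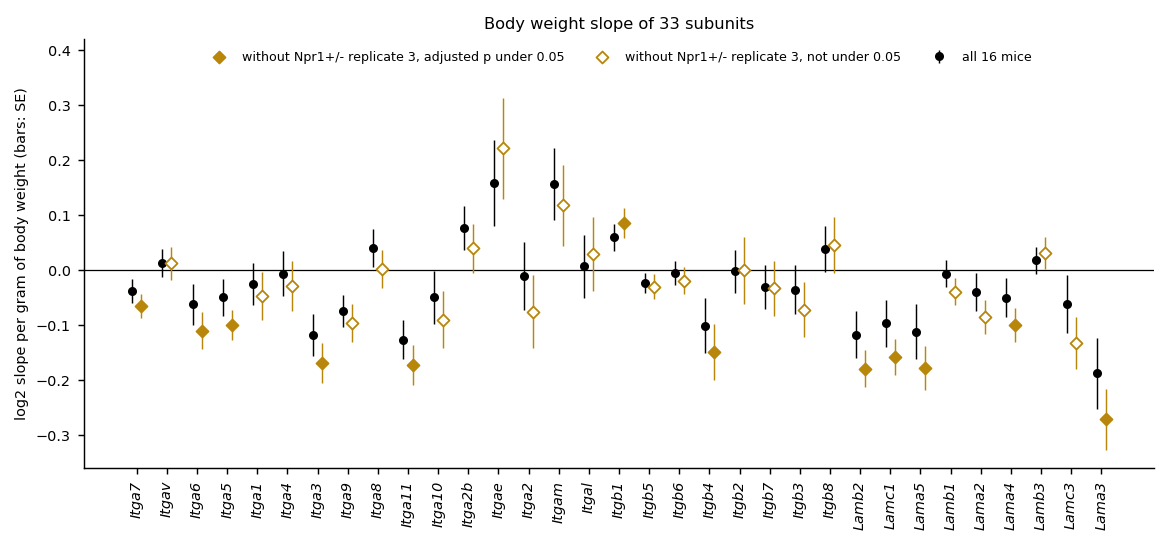
Log2 slope per gram of body weight (y axis, bars are 1 SE) of 33 subunit genes with all 16 mice (black) and without *Npr1*+/- replicate 3 (diamonds, filled where the adjusted p-value was under 0.05). The 12 filled diamonds are 11 genes below 0 and *Itgb1* above 0.

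Cage, the other covariate, separated no member at an adjusted p-value under 0.05 with edgeR, against 0.0279% of all genes. At an unadjusted p-value under 0.05 there were 5 of 33, against 7.36%: *Itga3*, *Itga6*, *Itgal*, *Lama5* and *Lamb2*. With the gene length correction there were also 5, with *Itga9* in place of *Lama5*, against 7.49% of all genes. Without *Npr1*+/- replicates 5, 6 and 7 there were 2 of 33, against 4.96% of all genes, and with cage as the only covariate 2 of 33, against 4.26%. *Lama5* averaged 28.7 ± 23.3 CPM (SD) in cage 675, 12.1 ± 1.83 in cage 676, 22.2 ± 8.98 in cage 677 and 28.2 ± 23.9 in cage 678, over 4, 4, 3 and 5 mice. Cages 675 and 678, which house replicates 6 and 7, had the highest means and the largest spread. Without *Npr1*+/- replicate 3, 7 of 33 members passed for cage, against 6.08% of all genes. These were *Itga3*, *Itga5*, *Itga6*, *Lama4*, *Lama5*, *Lamb2* and *Lamc1*.

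Chains that form 1 receptor or 1 trimer were compared across the 16 mice in 13 pairs, with 1 pair of ligand and receptor chains and 8 pairs of a member and a marker of a cell type that makes it. Of these 22, 11 passed a two-sided permutation test of Pearson's r on log2 CPM after Benjamini-Hochberg adjustment. *Lama5* and *Lamb2* had r = 0.92 (permutation p = 2e-05, adjusted p = 2.20e-04) and a Spearman's rho of 0.72 (adjusted p = 0.0128 by permutation). After genotype label, cage and body weight were taken out, r was 0.91, and after the gene length correction 0.91. Without the 2 mice farthest from the median of *Lama5*, *Npr1*+/- replicates 6 and 7, r was 0.73, and over the 13 mice without replicates 5, 6 and 7 it was 0.55, which did not pass (adjusted p = 0.277 by permutation). Whether this pair passed thus depended on these libraries.

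The other laminin pairs lost more of their correlation without them. *Lama2* and *Lamc1* had r = 0.86 (permutation p = 0.00105, adjusted p = 0.00572), yet rho was 0.45 and r 0.34 without the 2 farthest mice, again replicates 6 and 7. It was also low after the length correction (0.32) and without the 3 libraries (0.11). *Lama4* and *Lamb1* had r = 0.69 (permutation p = 0.00663, adjusted p = 0.0182), with a rho of 0.47 and r = -0.026 without the 2 farthest mice and -0.10 without the 3. Without the 3 libraries, r of *Lama2* and *Lamb2* went from 0.72 (rho 0.34, -0.022 without the 2 farthest) to -0.36, and that of the fiber laminin gene *Lama2* and its receptor gene *Itga7* from 0.60 (rho 0.20, -0.19 without the 2 farthest) to -0.44. With genotype label, cage and body weight taken out over all 16 mice, 3 of these 4 pairs passed: *Lama2* with *Lamc1* (r = 0.88), *Lama4* with *Lamb1* (0.79) and *Lama2* with *Lamb2* (0.69). *Lama2* and *Itga7* had r = 0.54 (adjusted p = 0.0941 by permutation), which did not pass. None of these 4 relations held without replicates 5, 6 and 7.

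Of the integrin pairs, *Itga6* and *Itgb4*, which form a laminin receptor of epithelial and endothelial cells and of nerve sheaths, had r = 0.88 (permutation p = 5e-05, adjusted p = 3.67e-04) and a rho of 0.81 (adjusted p = 0.00315 by permutation). Their r stayed at 0.78 after the length correction and 0.76 without the 2 farthest mice, and was 0.68 without the 3 libraries (adjusted p = 0.0829 by permutation). *Itga6* also followed the endothelial marker *Pecam1*, with r = 0.85 (permutation p = 1e-05, adjusted p = 2.20e-04), a rho of 0.82, r = 0.74 without the 2 farthest mice and 0.68 without the 3 libraries (adjusted p = 0.0561 by permutation). *Lama5* and *Pecam1* had r = 0.70 (rho 0.65, 0.38 without the 2 farthest mice) and 0.14 without the 3 libraries. After the length correction it was 0.54 (adjusted p = 0.135 by permutation), which did not pass. With genotype label, cage and body weight taken out, *Itga6* with *Itgb4* (r = 0.84), *Itga6* with *Pecam1* (0.84) and *Lama5* with *Pecam1* (0.64) passed. In bulk muscle, more cells of a type and more RNA per cell cannot be told apart. *Itgam* and the macrophage marker *Adgre1* had r = 0.73 (permutation p = 0.00130, adjusted p = 0.00572) and a rho of 0.79 (adjusted p = 0.00315 by permutation). This was the 1 pair that passed without the 3 libraries as well (r = 0.79, adjusted p = 0.0246 by permutation), and after genotype label, cage and body weight were taken out it had r = 0.40 (adjusted p = 0.218 by permutation), which did not pass. Its r was 0.74 without the 2 farthest mice, and the overlap of *Itgam* with *Gm49368* applies here too.

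The main receptor pair of the fiber, *Itga7* and *Itgb1*, went in opposite directions, with r = -0.61 (permutation p = 0.0129, adjusted p = 0.0296) and a rho of -0.62. Without the 2 farthest mice r was -0.43, after the length correction -0.45, and without the 3 libraries -0.35, and the last 2 did not pass. With genotype label, cage and body weight taken out it was -0.35 (adjusted p = 0.256 by permutation), which did not pass either. *Itga7* and the fiber gene *Ckm* had r = -0.60 (rho -0.49), and -0.32 without the 2 farthest mice. It was -0.047 after the length correction and -0.45 with the covariates taken out (adjusted p = 0.145 by permutation). *Ckm* does not stand for all 6 fiber markers here. It was lowest in *Npr1*+/- replicates 7 and 6, the 2 libraries where the sum of these markers was highest. The 11 pairs that did not pass include *Itga1*, *Itga5* and *Itga9* with *Itgb1* (r = -0.095, -0.46 and -0.53), *Itgav* with *Itgb5* (-0.28), the leukocyte pairs of *Itgal* and *Itgam* with *Itgb2* (-0.12 and 0.36) and the platelet pair *Itga2b* and *Itgb3* (0.060). For *Itga2b* and the platelet marker *Pf4*, r was 0.17.

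**Figure D5:**
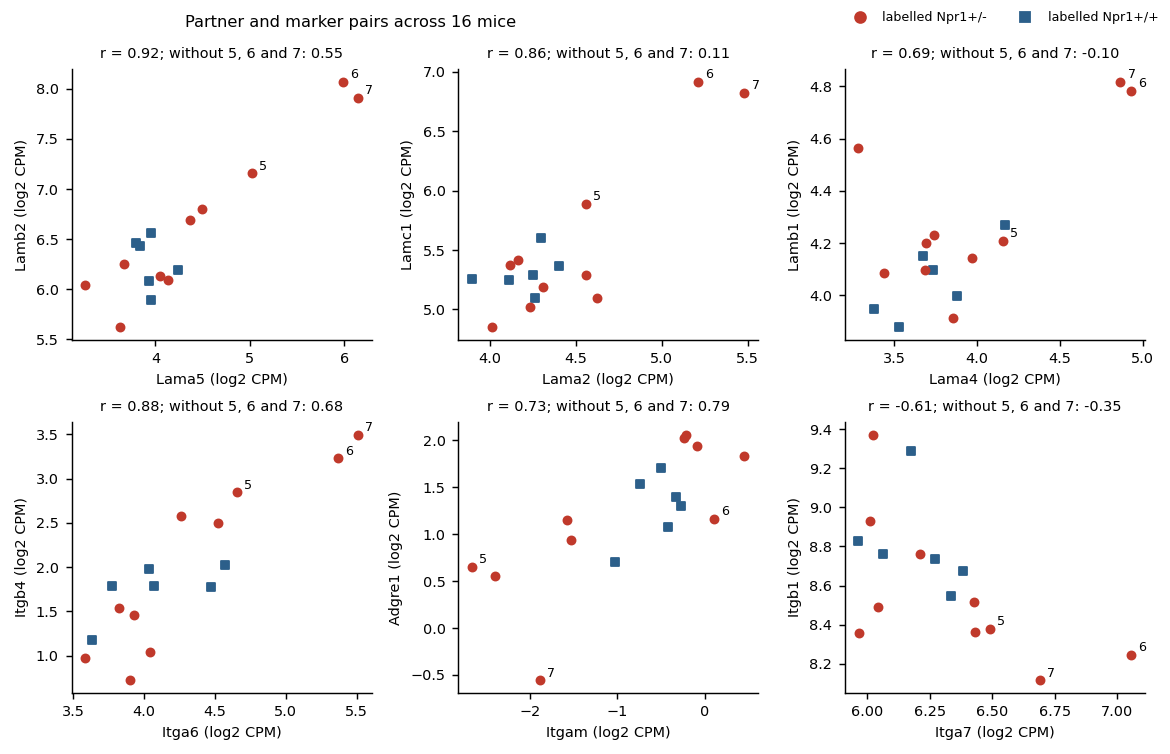
Log2 CPM of 6 pairs of genes in 16 libraries (red circles labelled *Npr1*+/-, blue squares labelled *Npr1*+/+), with *Npr1*+/- replicates 5, 6 and 7 numbered. In the 3 laminin panels replicates 6 and 7 lie at the upper right, and without the 3 numbered libraries r is 0.55 for *Lama5* and *Lamb2*, 0.11 for *Lama2* and *Lamc1* and -0.10 for *Lama4* and *Lamb1*, whereas *Itgam* and *Adgre1* have r = 0.73 with them and 0.79 without.

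No gene of 4 lists that act with the subunits had an adjusted p-value under 0.05 between labels with edgeR, and none had an unadjusted p-value under 0.05. Of 8 other genes of the laminin sheet (nidogens, perlecan, agrin and collagens), 7 had a log2 fold change above 0, with a median of 0.19. *Hspg2*, the gene of perlecan, had 0.35 (SE 0.35, p = 0.332) and *Nid2*, a nidogen that links laminin to collagen, 0.29 (SE 0.25, p = 0.273). The summed level of the 8 was 857 and 819 CPM in *Npr1*+/- replicates 6 and 7, against at most 315 in any *Npr1*+/+ library. Of 19 adaptors on the cell side, 14 were above 0 (10 after the length correction), with a median of 0.049, and their sum was 3212 and 3247 CPM in replicates 6 and 7 against at most 1668 in any *Npr1*+/+ library. *Flnc*, a filamin of muscle, had 0.39 (SE 0.37, p = 0.302) and *Ilk*, the integrin-linked kinase, 0.23 (SE 0.22, p = 0.312). The 13 genes of the dystroglycan complex, the other laminin receptor of the fiber, split 8 above and 5 below 0 with a median of 0.023. After the length correction 6 of 13 were above 0 and the median was -0.0077. *Sgca* had -0.18 (SE 0.15, p = 0.235) and *Sgcd* 0.27 (SE 0.26, p = 0.307). Their summed level in replicates 6 and 7 was 1878 and 1871 CPM, against 1686 to 1849 in the *Npr1*+/+ libraries. Among 9 other integrin ligands, 6 were above 0, and the smallest p-values were those of the fibronectin gene *Fn1* with 0.51 (SE 0.33, p = 0.142) and the thrombospondin gene *Thbs1* with 0.57 (SE 0.37, p = 0.144).

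Marker lists of cell types that make these subunits were read beside them, and their part in the members' values was not tested. The summed level of 6 endothelial markers had a lowest, median and highest value of 172, 225 and 472 in the *Npr1*+/- libraries and 189, 204 and 242 in the *Npr1*+/+ libraries, with 416 and 472 CPM in replicates 6 and 7, and 5 of the 6 had a log2 fold change above 0 (median 0.12). For 5 tendon markers the values were 60.5, 116 and 307 in the *Npr1*+/- libraries and 88.6, 109 and 118 in the *Npr1*+/+ libraries, again highest in replicates 6 and 7 (307 and 173), with 4 of 5 above 0. The sum of 6 mural and smooth muscle markers was lowest in replicate 6 at 791 CPM, and the pericyte gene *Rgs5*, with a mean of 763 CPM, is most of it. *Pdgfrb*, a receptor of mural cells, was highest in replicates 7 and 6, at a log2 CPM of 6.15 and 6.12 against 5.48 in the next library. Of the 6, 4 were above 0 between labels. The 6 fibroblast markers summed to 791 and 665 CPM in replicates 6 and 7, and the latter is the lowest of the 16. The matrix gene *Dcn*, with a mean of 623 CPM, is most of this sum, whereas *Pdgfra*, a receptor gene of fibroblasts on the same list, was highest in replicates 7 and 6 (log2 CPM 4.37 and 4.22, against 4.05 in the next library). The 7 leukocyte and macrophage markers, 3 of 7 above 0, ran from 40.5 to 169 CPM in the *Npr1*+/- and 74.4 to 139 in the *Npr1*+/+ libraries. Replicate 7 was the lowest of the 16 at 40.5 CPM, and replicate 6 was at 75. Of the 6 fiber markers, whose sum was highest in replicates 7 and 6 (133040 and 123060 CPM), 2 were above 0, and 1 of the 6, *Ckm*, had its 2 lowest values there (log2 CPM 14.12 and 14.22). Of 4 satellite cell markers 3 were above 0, and their sum was highest in replicates 6 and 7 (48 and 43.7 CPM). Of 5 nerve sheath markers 3 were above 0 and of 5 fat markers 1. The fat markers summed to 278 CPM in replicate 7, the lowest of the 16, and to 465 in replicate 6. Sums were also lowest in replicate 7 for the platelet markers (1.64 CPM) and in replicate 6 for the lymphocyte markers (1.26 CPM). Of 6 lymphocyte markers 2 passed the filter, the T cell gene *Cd3e* with a log2 fold change of 0.067 (SE 0.26, p = 0.803) and the B cell gene *Cd79a* with -1.18 (SE 0.34, p = 0.00334). *Cd79a*, with 174 counts over the 16 libraries, was the 1 gene on the marker lists with an unadjusted p-value under 0.05, and it did not pass after adjustment. The leukocyte chains *Itgae*, *Itgal* and *Itgb7* had log2 fold changes of 0.50 (SE 0.61), 0.45 (SE 0.50) and 0.29 (SE 0.32). For *Itgae* the levels do not follow the sign of this estimate, with 0.0455, 0.512 and 2.21 CPM in the *Npr1*+/- libraries and 0.369, 0.690 and 1.08 in the *Npr1*+/+ libraries, so its median was lower in the *Npr1*+/- libraries. Of 5 platelet markers 1 passed the filter, *Pf4*, and none of the 4 epithelial markers did, with a summed level of at most 0.448 CPM in any library, beside which *Lama3* and *Lamb3* stood at 1.03 and 3.70 CPM (medians of the *Npr1*+/- libraries).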

How the data were processed

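The authors prepared poly-A libraries, mapped reads to GRCm38 with STAR 2.7.2b and counted fragments per GENCODE M24 gene with featureCounts 1.6.4 (per the submitters' processing notes), and deposited raw counts without normalization. The sources differ on the kit (TruSeq Stranded in the paper's methods, Tecan in the labels), and the paper's methods give another featureCounts version. Gene names came from a table of gene IDs and symbols, and coordinates and lengths from the deposited table. Counts were filtered with filterByExpr by label, scaled with TMM and tested with edgeR 4.0.16 in R 4.3.3 (glmQLFit, robust = TRUE, legacy = TRUE). Genotype label, cage and body weight were in 1 model over 16 libraries, with Benjamini-Hochberg adjustment over 14331 genes and a threshold of 0.05. The paper's methods give glmQLFit with robust = TRUE and a correction for cage and body weight, in an earlier edgeR version. They name no low-count filter and no scaling method. CPM use the TMM library sizes, and log2 CPM a prior count of 1. The length correction took a lowess trend (span 0.3) of each library over log gene length as an offset.

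Members and lists were chosen with earlier results of these data known. Named genes were the 3 higher and 3 lower members with the smallest p-values, the 3 alpha, 3 beta and 4 laminin genes of highest level, members past a threshold, and the 2 genes of each other list with the smallest p-values. The text describes the leading 2 of the lists of interacting genes. For the marker lists it gives sums for most and values of some single genes. Correlations used permutation tests with 100000 resamples over 22 pairs. The genotype fit was tested on simulated data. Each mouse is 1 replicate, and no 2 libraries were identical. Intervals and floors cover counting error and the spread between these mice only. Alternatives were each covariate alone or none, a block for replicate number, RLE or no scaling, DESeq2 1.42.0, limma-voom (3.58.1), edgeR 4's own method, other filters, thinning, the length correction and leaving out each mouse. Leaving out 3 libraries together was added after the data were seen.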

Additional observations from a re-analysis of the deposited data

Results flagged for a closer look

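In 70 groups (33 members, library total and length trend, by label), 3 had a library far from the others, and chance gives about 1 in 20. *Itgb4* was at a log2 CPM of 1.18 in *Npr1*+/+ replicate 4, and the next lowest *Npr1*+/+ library was at 1.77. *Lama5* was at 4.24 in *Npr1*+/+ replicate 6, with the next highest at 3.95. The total of *Npr1*+/- replicate 5 was 59682677 counts, and the next highest of its label was 23819345.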

How the results depend on the processing

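With every alternative tried, 0 members passed between genotype labels. The median log2 fold change was 0.15 in the main fit and between 0.024 and 0.27 with each mouse left out. It stayed within 1 SD between mice (0.26) of the main value in every alternative. That SD is larger than the value itself, so a median of 0 would also lie within it. Members past the threshold ranged from 0 to 12 for body weight and 0 to 7 for cage with each mouse left out, and were 0 in the other alternatives. Over all genes, DESeq2 called 6 between labels, 2 passed with the block (4 with the length correction added), 8 without the filter, 1 without *Npr1*+/- replicates 5, 6 and 7, 0 to 3 with each mouse left out and 0 in the others. For cage, DESeq2 called 78 genes, the unfiltered fit 23, the length correction 9, and library size scaling 0.

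Signs were followed gene by gene for the 15 members named by p-value or level only, and other members changed sign too: of 33, 27 were above 0 with the label alone, 28 with cage only, 25 with body weight only, 25 with the replicate block, 24 with the length correction added to it and 21 without *Npr1*+/- replicates 5, 6 and 7, against 26. Between labels, the sign among the 15 turned to 0.24 for *Itga11*, 0.62 for *Lama3*, -0.040 for *Itgav*, 0.045 for *Itgb5* with the label alone, 0.21 for *Itga11*, 0.44 for *Lama3*, 0.048 for *Itgb5* with cage only, and -0.066 for *Itgav*, 0.0020 for *Itgb5* with body weight only. *Itgb1* was at -0.22 with the label alone, -0.25 with cage only, -0.27 with the replicate block and -0.28 with the length correction added, and changed sign to 0.012 with RLE, 0.012 with DESeq2, 0.012 without the filter, 0.0093 with the length correction and 0.012 with thinning. Without *Npr1*+/- replicates 5, 6 and 7 the signs that changed among the 15 were -0.039 for *Itga7*, 0.12 for *Itgb1*, -0.21 for *Lamb2*, -0.15 for *Lamc1*. With each mouse left out the ranges were -0.13 to 0.081 for *Itgb1*, -0.050 to 0.17 for *Itga7*, -0.15 to 0.51 for *Lamb2*, -0.19 to 0.36 for *Lamc1*, -0.021 to 0.18 for *Itgav*, -0.085 to 0.029 for *Itgb5*, -0.013 to 0.41 for *Itga6*, -0.015 to 0.17 for *Itgb6*. The causes were not tested.

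Of 22 pairs, 7 passed after genotype label, cage and body weight were taken out, 4 with the length correction, 1 without the 3 libraries and 5 to 13 with each mouse left out (5 without *Npr1*+/- replicate 6 or 7). Without the 3 libraries, r changed sign for 7 pairs: 3 that had passed, *Lama2* with *Lamb2* (-0.36), *Lama4* with *Lamb1* (-0.10) and *Lama2* with *Itga7* (-0.44), and 4 that had not, *Itga1* with *Itgb1* (0.34), *Itgam* with *Itgb2* (-0.018), *Itga2b* with *Itgb3* (-0.017) and *Itga8* with *Pdgfrb* (-0.19).

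Same-numbered mice of the labels share only a number (mean correlation 0.072 over 6 pairs, -0.0074 over 54 others, and 0 of 6 *Npr1*+/+ libraries correlated best with their own number). *Npr1*+/- replicates 7 to 10 have no *Npr1*+/+ mouse of their number, so the genotype and weight estimates of a fit with the block take nothing from them. With the replicate block in place of cage, 0 members passed and their median log2 fold change was 0.23; the signs that changed among the 15 were 0.040 for *Itga11*, -0.00042 for *Itgav*, 0.15 for *Itgb5*, and with the length correction added -0.16 for *Itgav*, 0.16 for *Itgb5*. Depth limits *Lama1* and *Itgax*, which entered no test with the filter and all mice.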
